A study of Mus musculus with 7 samples.

Results

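The epidermal differentiation complex is a stretch of mouse chromosome 3 in which genes of the upper epidermis lie side by side. Its 61 protein-coding genes were taken by name from the GENCODE annotation of GRCm38, out of 21938 protein-coding genes on chromosomes 1 to 19, X and Y. They are 14 S100a genes and 47 genes of the cornified envelope, of which 15 are Sprr genes, 21 are Lce genes, 7 code for fused S100 proteins (Flg, Flg2, Hrnr, Rptn, Tchh, Tchhl1 and Crnn) and 4 stand singly (Ivl, Lor, Crct1 and Lelp1). The complex was taken from the first base of S100a1 to the last base of S100a10, chr3:90511034-93564643, which is 3.05 Mb. The question asked of it here was which of its genes and which of its intergenic sites carried H3K27-Ac, a histone mark found at active promoters and enhancers, and whether S100a genes and cornified envelope genes differed in this.

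The cornified envelope is the sheath of cross-linked protein that replaces the cell membrane when a keratinocyte dies at the skin surface. Loricrin (Lor) makes up much of it, involucrin (Ivl) is its early scaffold, the small proline-rich (Sprr) proteins bridge its other parts, and the late cornified envelope (Lce) proteins join it last. The fused S100 proteins carry an S100 domain ahead of long repeats, and the best known is filaggrin (Flg), which packs keratin filaments. The S100a genes at both ends of the complex code for small calcium-binding proteins that are made in many tissues, not in the skin alone.

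The cells were clones grown from independent skin tumours of FVB/129P2 backcross mice that lacked Cdkn2ab, the locus of the cell cycle inhibitors p15Ink4b, p16Ink4a and p19Arf. The labels give all clones the same genotype (Cdkn2ab, written Cdkn2ab-/- by the study) and name no treatment. Each had been picked for growth in soft agar and then kept attached in culture, so that a clone stands for cells able to grow without attachment and not for a whole tumour. There were 4 H3K27-Ac libraries, 1 each of clones 1 and 2 and 2 of clone 3 that the authors pooled. The 3 IgG control libraries came from clones 1 and 3, and no such control of clone 2 was used here. Which control the peaks of clone 2 were called against is not given in the sources used here, and its fold enrichments and background rest on it. The deposited lists hold 29182, 49587 and 29277 peaks for clones 1, 2 and 3.

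The labels name no cell type, so marker genes were counted, beside a promoter peak at 49.8%, 56.9% and 48.1% of all protein-coding genes in clones 1, 2 and 3. Of 7 markers of basal keratinocytes, clones 1, 2 and 3 had a promoter peak at 2, 3 and 1, and Krt5, Trp63 and Itgb4 had none in any clone. Of 6 hair follicle markers they had 4, 5 and 4, with Sox9, Cdh3, Tbx1 and Runx1 marked in every clone, Lhx2 in clone 2 alone and Lef1 in none. Of 9 fibroblast or dermal papilla markers they had 7, 7 and 5, with Pdgfrb, Twist1, Twist2 and Prrx1 marked in every clone, Col3a1 in clone 3 alone and Dcn in none. These lists are short, and their shares were not tested against that of all genes. Of the 5 markers of simple epithelium only Krt19 was marked, in each clone, while the leukocyte, endothelium and melanocyte lists gave Cd68 in clones 1 and 2 and Mitf in all. The part that the cell type of the clones has in the values below was not tested. No clone had a peak within 1 kb of a start of Cdkn2a or Cdkn2b, and 1, 2 and 2 peaks lay elsewhere on Cdkn2a. The bounds of the deletion are not in the labels.

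The sequences at the sites that stand for the outcome were as follows, with every match to 4 motifs in capitals. The motifs were the AP-1 site TGANTCA, which reads the same on both strands, the TATA box TATAAA, the Klf site CCACACCC and the Tead site GGAATG, the last 3 searched on both strands. The promoter windows run from 250 bases before to 50 after the start, 5′ to 3′ on the strand of the gene, and are those of RefSeq on GRCm38. They are shown for S100a11, whose promoter peak had the most reads on average over the clones, at chr3:93520246-93520545 on the plus strand, and for Lor at chr3:92083093-92083392 and Ivl at chr3:92573686-92573985, both on the minus strand, which had no promoter peak in any clone.
S100a11: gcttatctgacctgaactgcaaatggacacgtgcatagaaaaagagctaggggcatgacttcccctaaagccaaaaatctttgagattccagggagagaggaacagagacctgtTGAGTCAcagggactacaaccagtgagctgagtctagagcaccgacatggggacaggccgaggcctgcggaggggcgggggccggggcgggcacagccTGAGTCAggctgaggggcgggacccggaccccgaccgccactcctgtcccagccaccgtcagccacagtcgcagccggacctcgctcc
Lor: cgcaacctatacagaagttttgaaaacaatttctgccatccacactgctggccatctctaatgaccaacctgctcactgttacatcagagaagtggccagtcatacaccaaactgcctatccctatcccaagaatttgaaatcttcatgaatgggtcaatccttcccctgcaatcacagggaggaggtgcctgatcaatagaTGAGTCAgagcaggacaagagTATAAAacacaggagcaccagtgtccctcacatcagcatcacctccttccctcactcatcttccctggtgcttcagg
Ivl: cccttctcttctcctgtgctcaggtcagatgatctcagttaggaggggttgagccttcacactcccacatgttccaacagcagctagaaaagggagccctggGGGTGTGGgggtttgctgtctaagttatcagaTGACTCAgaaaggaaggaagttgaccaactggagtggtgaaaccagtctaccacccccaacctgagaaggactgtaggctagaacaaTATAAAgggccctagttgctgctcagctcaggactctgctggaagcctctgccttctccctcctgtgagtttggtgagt

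The 2 intergenic sites that peaks of all clones shared are shown next, as 300 bases of the plus strand of GRCm38 centred on the summit of clone 3, which had the most reads at both. The site between S100a11 and S100a10 is at chr3:93537705-93538004, and the site closer to S100a10 is at chr3:93552362-93552661.
Site between S100a11 and S100a10: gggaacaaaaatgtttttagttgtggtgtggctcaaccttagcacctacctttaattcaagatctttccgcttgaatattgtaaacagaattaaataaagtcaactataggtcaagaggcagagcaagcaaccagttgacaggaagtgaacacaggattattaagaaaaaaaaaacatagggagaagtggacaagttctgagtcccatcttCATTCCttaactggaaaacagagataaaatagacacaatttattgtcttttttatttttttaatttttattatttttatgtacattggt
Site before S100a10: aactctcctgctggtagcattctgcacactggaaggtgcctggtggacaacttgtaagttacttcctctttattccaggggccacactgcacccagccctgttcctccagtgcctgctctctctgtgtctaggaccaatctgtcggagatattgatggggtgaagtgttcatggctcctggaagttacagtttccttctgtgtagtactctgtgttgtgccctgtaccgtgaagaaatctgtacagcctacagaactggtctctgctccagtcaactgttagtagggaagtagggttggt

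The S100a11 window held 2 AP-1 sites, 15 CpG dinucleotides and 61.7% G and C. The Lor window held 1 AP-1 site, 1 TATA box and 1 CpG, and the Ivl window 1 AP-1 site, 1 TATA box, 1 Klf site and no CpG. The site between S100a11 and S100a10 held 1 Tead site, 1 CpG and 32.3% G and C, and the site before S100a10 held none of the motifs and 2 CpG.

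S100a genes carried promoter peaks and cornified envelope genes hardly did. A promoter peak is a peak that overlaps the 1 kb on either side of an annotated start by at least 1 base. Of the 14 S100a genes, 9, 10 and 9 had a promoter peak in clones 1, 2 and 3, or 64.3%, 71.4% and 64.3%. Of the 47 cornified envelope genes none had a promoter peak in clone 1, and 1 had it in clone 2 and in clone 3, which is 2.13%. Over all protein-coding genes the share was 49.8% in clone 1, 56.9% in clone 2 and 48.1% in clone 3. The cornified envelope share therefore lay far below that of all genes in each clone. The S100a share lay somewhat above it, in a class of 14 genes of which S100a1 and S100a13 count from 1 shared peak. The median promoter window was 2310 bases in S100a genes and 2001 in cornified envelope genes. Whether the S100a share differs from that of all genes was not tested.

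Averaged over clones, 66.7% ± 4.12 of S100a genes and 1.42% ± 1.23 of cornified envelope genes had a promoter peak (SD, n = 3 clones). The difference was 64.3 percentage points in clone 1, 69.3 in clone 2 and 62.2 in clone 3, with a mean of 65.2 ± 3.67 (SD). It had the same sign in 3 of 3 clones, but an exact two-sided permutation test that flips the sign of each clone gave p = 0.25, the smallest p that 3 clones allow. The spread is that between clones, with 1 library each for clones 1 and 2 and 2 pooled libraries for clone 3. Members of a family are not independent of each other.

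The same 9 S100a genes were marked in all 3 clones, and no cornified envelope gene was. This is 64.3% of S100a genes, against 46.5% of all protein-coding genes. At the other end, 42.6% of all protein-coding genes had no promoter peak in any clone, against 4 of 14 S100a genes and 46 of 47 cornified envelope genes. No Sprr, Lce or fused S100 gene had a promoter peak in any clone, and among the single genes it was Crct1 alone, in clones 2 and 3.

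**Figure D1:**
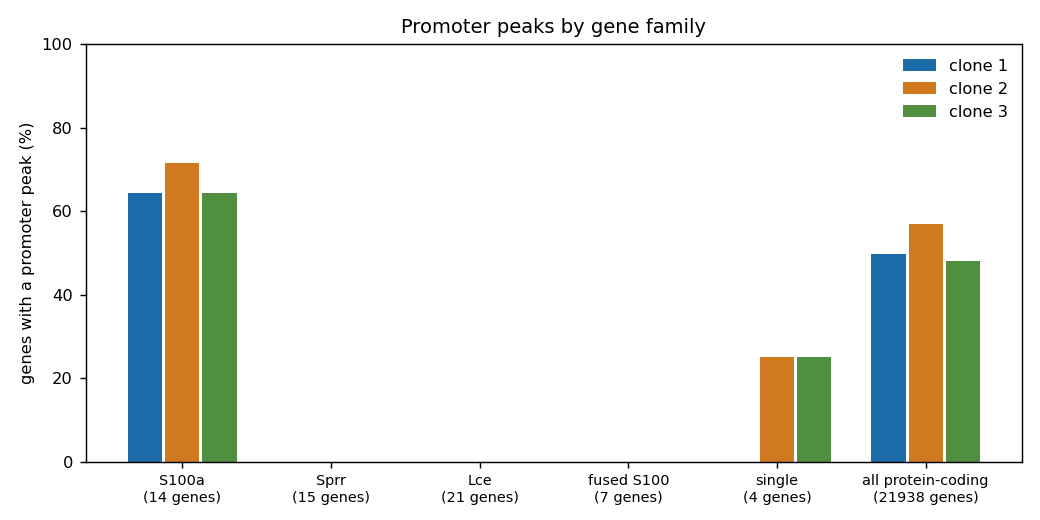
Share of genes with a promoter peak (vertical axis, percent) in each gene family and in all protein-coding genes, with 1 bar for each clone. The S100a bars stand at 64.3% to 71.4%, the Sprr, Lce and fused S100 bars at 0, and the bars of the 4 single genes show Crct1 in clones 2 and 3.

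Along the chromosome the peaks lay at the ends of the complex. The proximal S100a block, from S100a1 to S100a9, is 184.7 kb and had 12, 15 and 16 peaks in clones 1, 2 and 3, which covered 9.79%, 10.6% and 7.62% of its bases. The distal S100a block, from S100a11 to S100a10, is 44.16 kb and had 7, 8 and 7 peaks over 27.8%, 12.3% and 27.9% of its bases. The cornified envelope block between them, from Lor to Tchhl1, is 1392 kb and had 1, 6 and 10 peaks over 0.0196%, 0.203% and 0.441% of its bases. On the rest of chromosome 3 peaks covered 0.84%, 1.04% and 0.904% of the bases, so that the cornified envelope block lay below and both S100a blocks above the chromosome in every clone.

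Over the whole complex 1.03% ± 0.085 (SD, n = 3) of the bases were under peaks against 0.929% ± 0.103 of the rest of the chromosome. The clones did not share a direction. The complex lay above the rest in clone 1 (1.02% against 0.84%) and clone 3 (1.11% against 0.904%) and below it in clone 2 (0.943% against 1.04%). Between S100a9 and Lor, 1385 kb held no peak in clones 1 and 3 and 1 peak in clone 2, with 26 reads at its summit. The longest stretch of the complex without a peak measured 1813, 834.6 and 1596 kb in clones 1, 2 and 3. In clone 1 it ran from the body of S100a6 to Gm9774, a gene among the Sprr genes, and held 15 genes of the complex, among them S100a7a, S100a8, S100a9 and Lor.

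**Figure D2:**
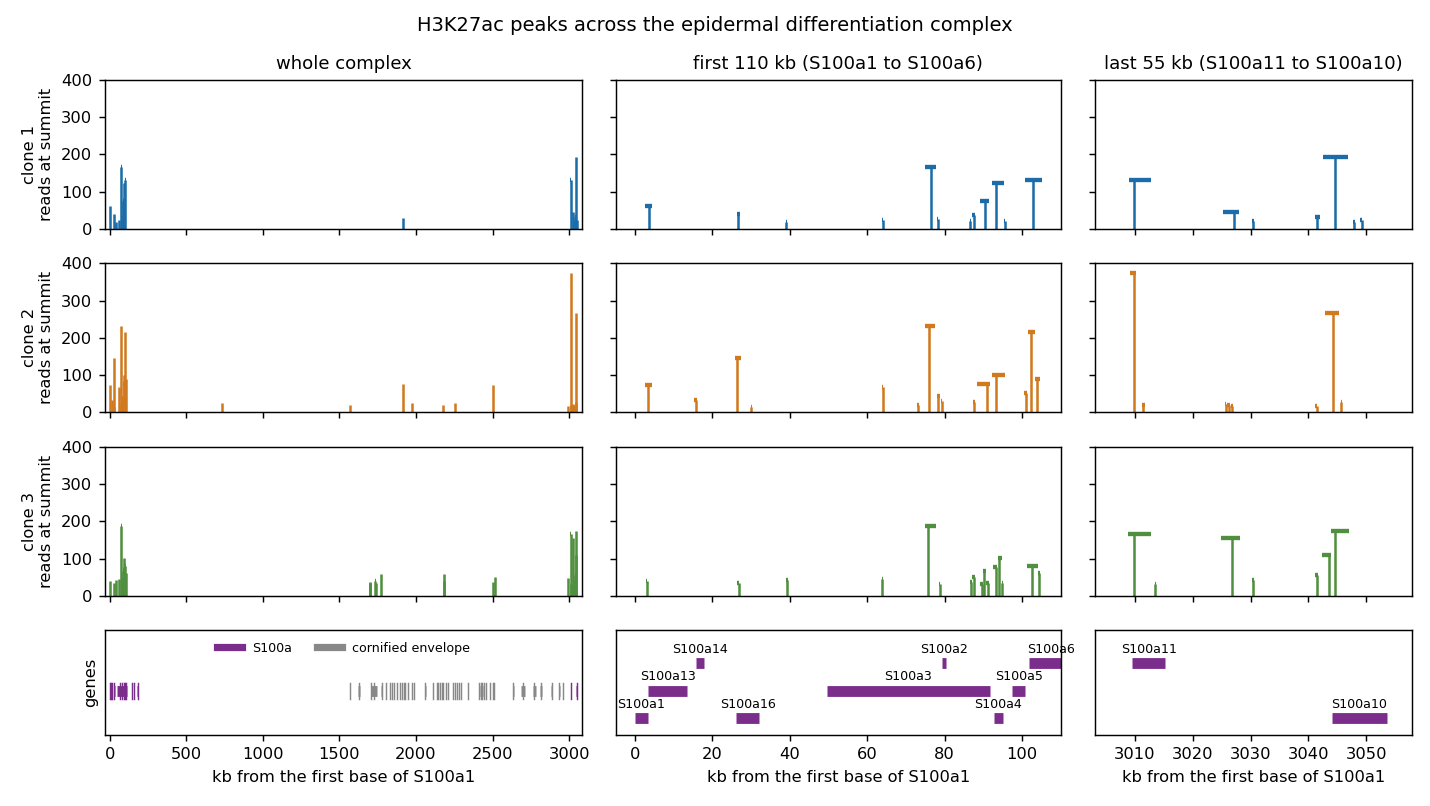
Peaks of each clone along the complex, as distance in kb from the first base of S100a1 (horizontal axis) and ChIP reads at the summit (vertical axis), with the width of each peak drawn as a bar at its top and the genes below in purple (S100a) and grey (cornified envelope). The left panels show the whole complex and the others its ends; the tall peaks, up to 373 reads at S100a11 in clone 2, lie at the ends.

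**Figure D3:**
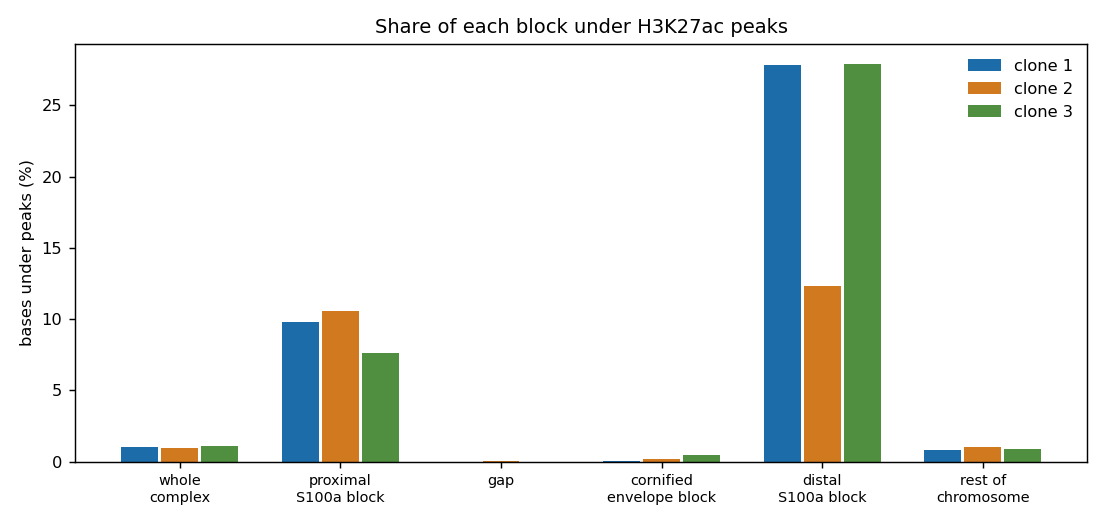
Share of the bases of each block that lie under peaks (vertical axis, percent), with 1 bar for each clone, beside the rest of chromosome 3. The distal S100a block reaches 27.9% in clone 3, while the gap between S100a9 and Lor and the cornified envelope block stay under 0.5%.

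The S100a genes marked in all clones are given in 3 groups, by block and by how strongly they were marked. Strength is the number of ChIP reads at the summit of the strongest promoter peak, which was recovered from the deposited fold enrichment and p and depends on the depth of the list. It is therefore set beside a percentile, the share of all genes with a promoter peak in that list whose strongest peak had no more reads.

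S100a11 and S100a10 lie in the distal block; their proteins bind annexins at the cell membrane, S100a10 together with annexin A2. S100a11 had 132, 373 and 167 reads in clones 1, 2 and 3, at percentiles 69.6, 91.2 and 94.7. Its fold enrichment was 33.5, 86.7 and 8.75, and the summits lay 327, 391 and 308 bases from the start, in an intron. S100a10 had 193, 266 and 175 reads, at percentiles 90.5, 65.7 and 95.9. Both genes ranked above the middle of the marked genes in every clone, and their peaks covered an annotated start in each.

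S100a4, S100a6 and S100a3 lie together in the proximal block. S100a4 is known from motile and mesenchymal cells, S100a6 (calcyclin) from dividing cells, and S100a3 from the hair cuticle. S100a4 had 122, 100 and 102 reads, at percentiles 64.4, 20.8 and 67.6, and S100a6 had 130, 217 and 81, at percentiles 68.5, 51.3 and 48.8. S100a3 had 167, 231 and 189 reads, at percentiles 83.3, 55.5 and 97.5. That peak, at chr3:90585842-90588807 over the clones, lies inside the S100a3 gene and counts as a promoter peak through an internal start that GENCODE and RefSeq both list there. A weaker peak lay at the last starts of S100a3, with 75, 75 and 67 reads.

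The peaks of S100a1, S100a13, S100a16 and S100a2 were weaker on average over the clones, although S100a16 had more reads than S100a4 in clone 2. S100a1 and S100a13 start side by side and point away from each other, so that 1 peak counts for both; it had 62, 74 and 40 reads, at percentiles 27.4, 15.9 and 6.59. S100a16 had 40, 146 and 34 reads, and S100a2 had 27, 43 and 32. The summits of these S100a2 peaks lay 994, 903 and 392 bases from its start, close to the limit of 1 kb in clones 1 and 2. A weaker peak of clone 2, with 31 reads, covered the start of S100a2. Clone 2 was highest at S100a16, at percentile 31.4, against 12.9 in clone 1 and 2.11 in clone 3. In clones 1 and 3 no peak of S100a2 covered its start, and in clone 3 the same held for S100a1, S100a13 and S100a16.

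S100a14, a gene of epithelial cells, had a promoter peak in clone 2 only, with 33 reads at percentile 6.81, and the next peak in clones 1 and 3 was 10.4 and 10.5 kb away from its starts. S100a5, known from olfactory neurons, had no promoter peak; the flank of a promoter peak of S100a6 touched its end in clones 1 and 2. S100a7a, S100a8 and S100a9 had no peak in any clone. S100a8 and S100a9 code for the subunits of calprotectin, abundant in neutrophils and in inflamed epidermis, and S100a7a is a relative of psoriasin. The nearest peak to S100a7a was 37.8 to 38.5 kb from a start, that to S100a8 52.8 to 53.4 kb and that to S100a9 79.5 to 80.2 kb.

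**Figure D4:**
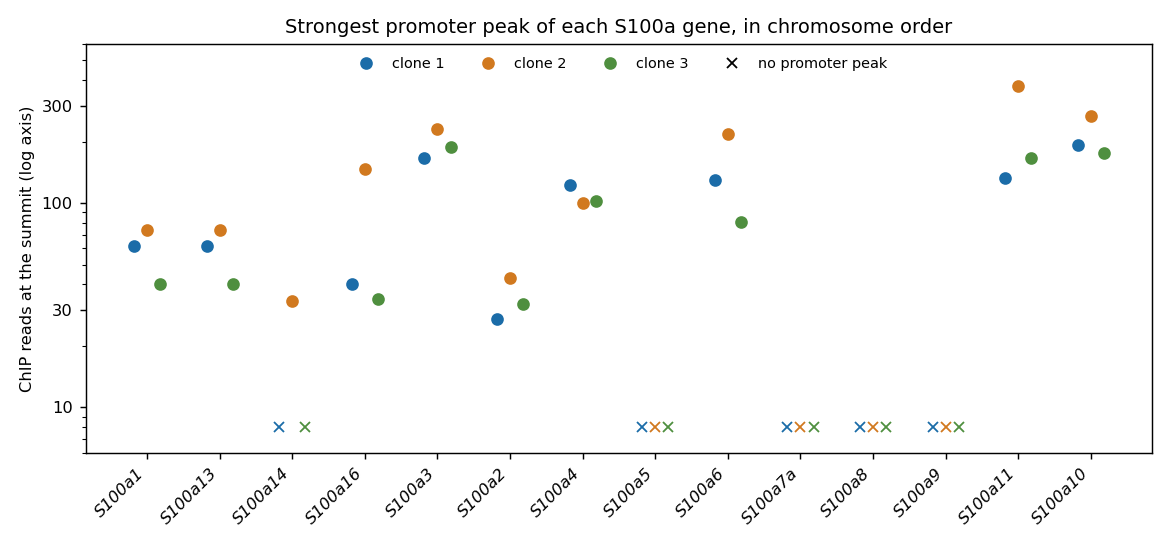
ChIP reads at the summit of the strongest promoter peak (vertical axis, log scale) of each S100a gene in chromosome order, with 1 point for each clone and a cross at the foot of the axis where there was no promoter peak. Of the genes marked in all clones, S100a11, S100a10 and S100a3 have the most reads and S100a2 the fewest, and S100a7a, S100a8 and S100a9 show crosses only.

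S100a3 also carried peaks along its body, which spans 42125 bases: 4 in clone 1, 4 in clone 2 and 5 in clone 3 beside its promoter peaks, 1 of them close to the S100a2 start in clones 1 and 3 and 2 in clone 2. At chr3:90574732-90575199 all clones had a peak, with 24, 67 and 45 reads, and at chr3:90598063-90598920 with 38, 29 and 51 reads. Both lie in introns of S100a3 transcripts.

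Of the cornified envelope genes, 42 of 47 had no peak within 1 kb of a start or on the gene in any clone, and 36 had no peak of any clone within 10 kb of a start. This holds for Ivl, whose nearest peak was 144.3, 89.1 and 117.5 kb from its start in clones 1, 2 and 3, and for Flg, with 227.8, 214.4 and 211.9 kb, and Flg2, with 319.7, 182.2 and 171.0 kb. Lce1a1 had none within 218.8, 41.0 and 42.9 kb. For all protein-coding genes, neither the count without any peak nor that without a peak within 10 kb was made, so the 42 and the 36 stand without a background share. Sprr1b, coding for a precursor of the envelope, had a peak 9.31 and 9.24 kb away in clones 1 and 2 and none within 156.5 kb in clone 3. The peaks of clones 1 and 2 on that side of Sprr1b sit at Gm9774, 3.03 kb from the start of Sprr2k, the nearest gene of the complex. Gm9774 was singled out after its values were seen. Its peaks had 30 and 76 reads and summits at neighbouring bases, and 62.7% and 44.3% of the 65-base words under them, the length of a read, occur more than once in the genome.

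The 5 cornified envelope genes that had any peak were Crct1, Lor, Sprr1a, Lce1h and Sprr2a2. Crct1, a gene of a small cysteine-rich protein, had a peak at chr3:93014276-93015033 in clone 2 with 74 reads and a peak inside these bounds in clone 3 with 38 reads, at percentiles 15.9 and 4.99. The summits lay 1027 and 1013 bases from the nearest start, so that the flank and not the summit fell in the promoter window. In clone 1 the nearest peak was 504.3 kb away.

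Lor, Sprr1a and Lce1h had a peak on the gene in clone 2 alone, with 19, 25 and 26 reads at the summit. Like that of Crct1, each summit lay in the coding exon and not at the start, 2.15 kb downstream of the start of Lor, 1.43 kb in Sprr1a and 1.58 kb in Lce1h. In clone 2, 5 of the 6 summits in the cornified envelope block were in coding sequence, which makes up 4.22% of the block. The same held for the 1 peak of clone 1 and for 1 of 10 peaks of clone 3. Clone 2 differed in this over its whole list: of its summits more than 1 kb from any start of a protein-coding gene, 7.24% lay in coding sequence, against 1.37% in clone 1 and 1.05% in clone 3. The 300 bases around the summits held 72.3% G and C in Lor, 67.0% in Sprr1a, 60.3% in Lce1h and 68.0% in Crct1, where the median of all peaks of clone 2 was 57.0%, against 53.0% in clone 1 and 51.0% in clone 3. The part that this composition has in the peaks was not tested.

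Sprr2a2 had 2 peaks in clone 3, in an intron. They belong to a set of 6 peaks of clone 3 alone that lie upstream of Sprr2a1, Sprr2a2 and Sprr2a3. The summits were 4.51, 3.75 and 3.17 kb upstream of Sprr2a1, 3.94 and 3.38 kb upstream of the second start of Sprr2a2 and 3.93 kb upstream of the first start of Sprr2a3, with 34 to 59 reads. These genes are near-identical copies: between 5 and 1 kb upstream of those starts, 92.4%, 93.8% and 81.1% of the words of 65 bases occur in another of the copies. Under 5 of the 6 peaks every such word was found more than once in the genome, and under the peak at Sprr2a3 89.7% were. Reads from such words cannot be told apart by the copy they came from, and how many of the copies carried the mark was not tested.

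Repeated sequence was rare at the other starts. The share of 65-base words in the promoter windows that occur more than once was over 50% in 4 of 47 cornified envelope genes, Sprr2a1, Sprr2a2, Sprr2a3 and Flg, and in no S100a gene, where the highest was 1.85%. The median was 0.103% in cornified envelope genes and 0 in S100a genes. Of the peaks of clone 2 on cornified envelope genes, that of Lce1h had 4.93% of such words and those of Lor, Sprr1a and Crct1 had none.

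Of all peaks in the complex, 5 in clone 1, 7 in clone 2 and 12 in clone 3 were intergenic, a mean of 8.00 ± 3.61 (SD, n = 3). Clone 3 had 7 of its 12 in the cornified envelope block, clone 2 had 1 there and clone 1 none. Of the 7, 3 lay upstream of Sprr2a1 and 1 upstream of Sprr2a3, at the near-identical copies. Under these 100% and 89.7% of words of read length occur more than once in the genome, against none under the rest of the 7. Each peak at a copy was counted as its own site. Clone 3 also had the only pooled list, and its peak names mention no filter for mapping bias. The part that copies, pooling or filter have in the peaks of clone 3 alone was not tested. When peaks of the clones were joined where they overlapped, 15 intergenic regions resulted, of which 2 were in all clones, 2 in 2 clones and 11 in a single clone. Of the 15 regions at promoters of the complex, 9 were in all clones. Of the peaks of clones 1, 2 and 3 in the complex, 90.0%, 67.7% and 67.6% overlapped those of at least 1 other clone. The lists differ in length, and the shares over whole lists were not computed. These figures and the counts of regions therefore do not show whether the complex is shared more or less than other places.

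The intergenic regions of all clones lie in the distal block. The region at chr3:93535848-93539283, 15.4 kb beyond the start of S100a11, had 44 reads in clone 1, 22 in clone 2 and 155 in clone 3. In clone 3 it came close to the promoter peak of S100a11, with 167 reads, while in clone 2 it broke into 3 weak peaks. The region at chr3:93552212-93553034, 2.05 kb before the start of S100a10, had 33, 16 and 56 reads. The order of the clones at both depended on the scale: clone 3 had the most reads, whereas fold enrichment was highest in clone 1, at 10.99, 5.21 and 9.76 for the first region and 8.82, 4.35 and 5.93 for the second in clones 1, 2 and 3. Clone 2 was lowest at both on either scale. Chosen after their values were seen, a region at chr3:93541326-93541685 was in clones 1 and 3, with 22 and 42 reads, and so was a region at chr3:90549968-90550501 between S100a16 and S100a3, with 19 and 43 reads.

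In base composition the promoters of the complex were poor in CpG. RefSeq windows were at hand for 55 of the 61 genes, 59 windows in all; Crct1, S100a10, S100a14, S100a2, Lce1f and Sprr2j-ps had none. The median was 3.00 CpG in the 15 S100a windows and 1.00 in the 44 cornified envelope windows, against 13.0 in 21254 windows of all protein-coding genes. S100a11 with 15, S100a13 with 14 and S100a1 with 11 had the most of the complex, and no cornified envelope window had more than 5. Marked S100a genes were not all rich in CpG: S100a4 had 2, S100a16 had 2 and 4 in its windows, and S100a8 and S100a9, which had no peak, had 4 and 2.

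**Figure D5:**
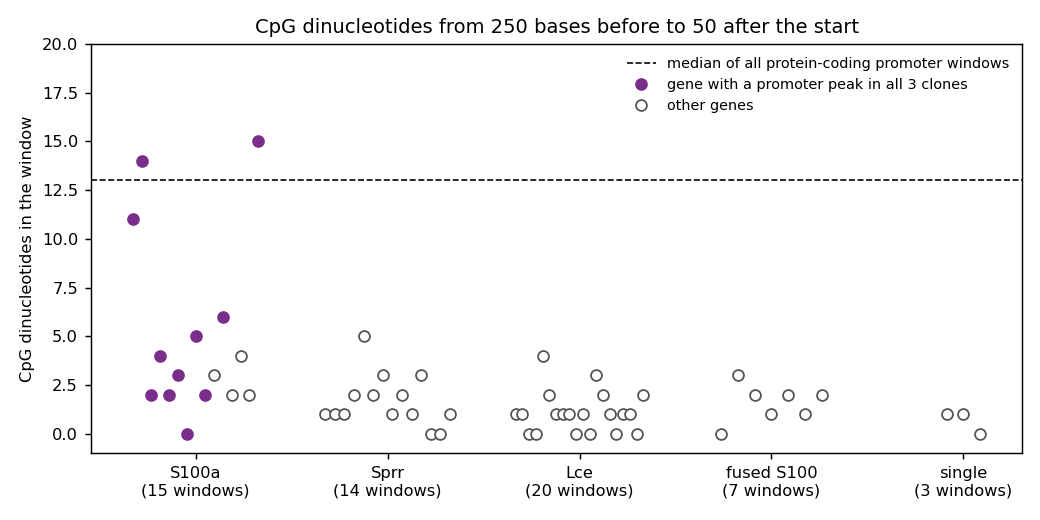
Number of CpG dinucleotides (vertical axis) in each promoter window by family, filled where the gene had a promoter peak in all 3 clones, with a dashed line at the median of 13.0 for all protein-coding genes. The filled points of S100a1, S100a13 and S100a11 stand at 11 to 15 and that of S100a6 at 6. The other filled points overlap the open ones, and no window of a cornified envelope gene is above 5.

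The AP-1 site was found in 9 of 14 Sprr windows, 5 of 7 fused S100 windows and 2 of 3 windows of single genes, but in none of 20 Lce windows, against 6.99% of all protein-coding windows. The TATA box was found in 10 of 14 Sprr, 4 of 7 fused S100 and 4 of 20 Lce windows, against 12.6% of all. Of the S100a windows 2 of 15 held an AP-1 site, that of S100a11 and 1 of S100a16, and 4 of 15 a TATA box. The Klf site was in 1 cornified envelope window, that of Ivl, and in no S100a window, against 3.63%, and the Tead site in 9 of 44 and 2 of 15, against 13.6%. Around the summits of all peaks the AP-1 site was found in 6.68%, 8.97% and 8.07% of windows of the same length in clones 1, 2 and 3. A match is a description of the letters and not a sign that a factor was bound.

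Genes that build or process the cornified envelope elsewhere in the genome were also mostly without the mark. Of 20 such genes, 4, 5 and 3 had a promoter peak in clones 1, 2 and 3, below the share of all genes, and 15 had none in any clone, among them Tgm1 and Tgm3, which cross-link the envelope, Krt1, Casp14 and Alox12b. Krt10, the keratin of the suprabasal layers, had 45, 178 and 61 reads, Cdsn had 86, 159 and 100, and Aloxe3 had 45, 158 and 50. Of 8 regulators of this programme 3, 3 and 2 had a promoter peak, in clones where 49.8%, 56.9% and 48.1% of all genes did. Klf4 was among the strongest marked genes, with 203, 391 and 155 reads at percentiles 92.7, 94.4 and 92.2, and Cebpa was marked with 100, 192 and 74 reads. Prdm1 had 65 and 88 reads in clones 1 and 2 and no peak in clone 3. Grhl3, Ovol1, Zfp750, Trp63 and Satb1 had no promoter peak in any clone.

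A gene without a peak is one where the list holds no site, and the weakest peak of the lists rested on 13, 12 and 25 reads in clones 1, 2 and 3, so weaker signal was not detectable. Within the complex the local background at the peaks had a median of 1.00, 1.00 and 2.00 control reads, the same as over chromosome 3 and over all autosomes. These values come from called peaks only, of which the cornified envelope block held 1 of 20, 6 of 31 and 10 of 34. They do not show the background where there was no peak.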

How the data were processed

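H3K27-Ac and IgG ChIP-seq libraries of 3 clones were sequenced single-end at 65 bp and mapped to GRCm38 with bowtie2 by the authors. Per the labels, peaks were called with MACS2 2.1.1, for each clone separately; the peak names mention a filter for mapping bias between alleles for clones 1 and 2 and not for clone 3. Fold enrichment, as deposited, is a ratio: the ChIP pileup at the summit plus 1, over the local background plus 1. The −log10 columns deposited beside it hold p and q. Whether reads that map to several places were kept is not given in the sources used here.

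The number of ChIP reads under every summit was recovered here, taking p as a Poisson tail and the background from the fold; 100% of peaks gave whole reads, to within 0.00103 read at most. In 3 runs of 3000 simulated peaks, 100%, 99.83% and 100% were right. The runs drew their own scale and did not use the values of the clones. Their backgrounds were whole numbers or 1 fractional value per run, so the other fractional backgrounds of the lists were not tested. Genes and all their transcript starts were from GENCODE M21. On other sequences than chromosomes 1 to 19, X and Y lay 29 peaks, which were left out. Each peak of the complex was placed once, by promoter, then body of a member, then another protein-coding gene, then intergenic. The tools were pandas 2.3.3, numpy 2.4.6 and scipy 1.17.1 under Python 3.11.15, with pysam 0.24.0, samtools 1.23.1, numba 0.67.0 and matplotlib 3.10.9.

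The genes named were every S100a gene, every cornified envelope gene with a peak, Ivl, Lor, Flg, Flg2, Sprr1a, Sprr1b and Lce1a1, and up to 5 intergenic regions present in all clones, of which there were 2; other protein-coding genes only where they start beside a member or hold peaks among the strongest of the complex. Members and lists were chosen with earlier results of these data known. There is 1 condition and no treated group, and the only test compared the classes over clones. Alternatives were other promoter windows and starts, a −log10 q of at least 5, equal numbers of peaks, other gene sets and leaving out each clone. The clones came from independent tumours, with 1 list each, so the SD joins the spread between tumours with that between libraries.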

Additional observations from a re-analysis of the deposited data

How the results depend on the processing

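Of 54 alternative values of the 6 main results, none reversed, 41 moved by less than their limit and 13 by more. The difference between S100a and cornified envelope genes stayed positive in every alternative, between 54.8 and 69.6 percentage points. Where a peak had to cover a start base, 54.8% of S100a and 0.00% of cornified envelope genes were marked, and 5 genes in all clones in place of 9. With a window of 2.5 kb the shares were 73.8% and 4.26%. With the outermost start alone 59.5% of S100a genes were marked, since the intron peak of S100a3 no longer counts. At a −log10 q of at least 5, which leaves out weak peaks by its construction, 57.1% ± 18.9 (SD) of S100a genes were marked. This left 5 genes in all clones, 2.67 intergenic peaks on average and 0.863% of the bases. The SD at this limit, and where a peak had to cover a start, was larger than the 4.12 of the main setting. In clone 3 the promoter peaks of S100a1, S100a13, S100a16 and S100a2 failed both rules. With the same number of peaks in each clone 61.9% of S100a genes were marked, and without the 2 S100a genes that start beside each other 61.1%. Where the summit itself had to lie in the window, 0.00% of cornified envelope genes were marked, since Crct1 no longer counts. The share of all protein-coding genes is not given for these settings, so the S100a shares here cannot be set against it.

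Leaving out each clone in turn gave 64.3% to 67.9% of S100a genes, 1.06% to 2.13% of cornified envelope genes, a difference of 63.2 to 66.8 points, 9 to 10 genes marked in all remaining clones, 6.0 to 9.5 intergenic peaks and 0.982% to 1.07% of the bases. Leaving out the 3 Sprr2a genes and Flg, chosen after seeing the data, gave 1.55% and a difference of 65.1 points. No paired analysis was possible because there is 1 condition, so that no groups of samples share replicate numbers; the comparison of S100a with cornified envelope genes already takes the difference within each clone. Depth and the threshold of the peak calls limit what a missing peak can show.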
